A study of Mus musculus with 2 samples.

Results

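The nuclear factor I (NFI) genes Nfia, Nfib, Nfic and Nfix, together with Hopx, Foxo3 and Klf9, were examined in single cells of the adult mouse subventricular zone (SVZ), the stem cell niche along the lateral ventricle. The 7 genes were taken by symbol from the 27998 gene rows of the deposited matrix, and each symbol matched 1 row. They were followed from astrocyte-like cells through activated and dividing cells to neuroblasts, the young neurons that leave the niche. Quiescent stem cells and other astrocytes were not told apart within the astrocyte-like class.

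NFI proteins bind DNA as dimers to the palindromic TTGGC element, open astrocyte genes during gliogenesis, and in neural stem cells take part in holding the quiescent state and in later neuronal maturation. Hopx is a small homeodomain protein that does not bind DNA itself, acts through serum response factor and histone deacetylases, and marks radial glia-like, quiescent stem cells. Foxo3 is a forkhead factor that insulin and Akt signalling keeps out of the nucleus and that preserves the adult neural stem cell pool, while Klf9 is a Krüppel-like zinc finger factor induced directly by glucocorticoid and thyroid hormone receptors.

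The cells came from male C57BL/6 mice of 2 months (tissue of 4 mice pooled) and of 22 months (tissue of 8 mice pooled), with no transgene or treatment in the labels. They were sorted as GLAST-positive cells that lacked O4, Ter119 and CD45, so oligodendrocytes, red cells and leukocytes were selected against, and 8000 sort events per library entered the Chromium 3' kit. Each age was 1 library of pooled animals, so variation between animals was not measured and no difference has a replicate check. The matrix marks the libraries only by a barcode suffix that no label ties to an age, and they are called library 1 and library 2 with no age assigned.

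Library 1 held 1849 cell barcodes and 10440891 unique molecular identifiers (UMIs, each counting 1 captured transcript), and library 2 held 2088 barcodes and 13330251 UMIs. The median was 4463 and 5763 UMIs per cell, 4 barcode sequences occurred in both libraries, and 3888 cells passed the filters. The cells fell into 17 clusters, built without the 7 genes and without the other genes listed here, and were named by fixed marker genes. There were 851 and 649 astrocyte-like cells in library 1 and library 2, 129 and 305 activated-like cells, 224 and 457 dividing-like cells, and 276 and 299 neuroblast-like cells. The 15 astrocyte markers summed to 17636 and 16311 CPM (counts scaled to 1000000 UMIs of a class) in the astrocyte-like cells and to 896 and 655 CPM in the neuroblasts, and the 17 neuroblast markers summed to 14631 and 14530 CPM in the neuroblasts. The activated-like and dividing-like classes were less distinct. The 17 neuroblast markers summed to 3578 and 3324 CPM in activated cells beside 3572 and 3376 CPM of their own 15 markers, and to 4498 and 4571 CPM in dividing cells beside 4307 and 4777 CPM of their own 16 markers. The 15 activated markers were as high in dividing cells, at 3702 and 3501 CPM. Of the dividing cells, 119 and 176 lay in cluster 5, led by the S phase histone gene Hist1h2ap, 85 and 193 in cluster 6, led by the mitotic gene Nusap1, and 20 and 88 in cluster 12, led by the mitotic gene Cdc20.

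CPM is the share of a class's UMIs that a gene holds, and throughout, the value of library 1 precedes that of library 2. Intervals are exact 95% intervals that cover counting error only. Activated and dividing cells held medians of 8318 and 7815, and of 10513 and 10130 UMIs, against 3711 and 3607 in astrocyte-like cells and 2963 and 3227 in neuroblasts. An equal CPM therefore stands for more UMIs per cell in activated and dividing cells, and the UMIs per cell are given beside the CPM where the order of classes differs. Fewer transcripts in every cell and fewer cells with any transcript cannot be told apart from a summed CPM, and shares of cells are given after each cell was thinned at random to 2000 UMIs. Left out as shallower were 82 and 36 astrocyte-like cells, 1 and 3 activated, 2 and 0 dividing cells, and 30 and 14 neuroblasts.

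The gene models lie on GRCm38 (GENCODE M21) and all 7 are protein coding. Nfia spans chr4:97772734-98118874 on the plus strand, Nfib chr4:82290173-82705750 on the minus strand, Nfic chr10:81396186-81455635 on the minus strand and Nfix chr8:84699876-84800344 on the minus strand. Hopx spans chr5:77086988-77115121 on the minus strand, Foxo3 chr10:42181841-42276755 on the minus strand and Klf9 chr19:23141226-23168134 on the plus strand. Nfia overlaps the opposite-strand gene E130114P18Rik, and Nfib overlaps the opposite-strand gene Gm11266. Whether the counting used strand is not given in the sources used here, so reads of each pair cannot be told apart with certainty. Over the kept cells E130114P18Rik held 2751 UMIs beside 12563 of Nfia, and Gm11266 held 572 beside 15537 of Nfib. Hopx overlaps Hopxos, which held 2 UMIs.

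Hopx and Klf9 were the members with higher CPM in astrocyte-like cells than in every later class, and the upstream sequences of their genes are shown because RefSeq (GRCm38.p6) gives 1 for each at the gene model's own start. Each runs 5′ to 3′ over the 250 bases before the start, and capitals mark the forkhead motif GTAAACA. The Klf9 window is chr19:23140976-23141225 on the plus strand, and the Hopx window is chr5:77115124-77115373 on the minus strand.
Klf9: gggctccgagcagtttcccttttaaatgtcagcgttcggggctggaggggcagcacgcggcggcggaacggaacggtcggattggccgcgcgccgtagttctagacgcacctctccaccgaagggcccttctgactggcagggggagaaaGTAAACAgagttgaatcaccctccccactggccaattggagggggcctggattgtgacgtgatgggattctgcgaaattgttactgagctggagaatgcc
Hopx: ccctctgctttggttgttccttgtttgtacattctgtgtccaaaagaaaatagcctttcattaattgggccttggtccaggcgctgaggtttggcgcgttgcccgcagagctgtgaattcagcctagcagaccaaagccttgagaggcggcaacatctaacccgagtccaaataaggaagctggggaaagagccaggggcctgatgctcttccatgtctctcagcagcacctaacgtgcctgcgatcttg
The motifs searched on both strands were the NFI palindrome (TTGGC and GCCAA with any 5 bases between them), the shorter NFI element TTGGCA, the forkhead motif GTAAACA and the GC box GGGCGG that Sp1 and Krüppel-like factors bind. A window was found for 6 of the 7 genes, with 10 start sites in all. The Klf9 window alone of these 10 held GTAAACA, which was present in 3.17% of 32851 windows of the same length. The Hopx window shown held none of the 4 motifs. TTGGCA was in 0 of the 10 windows against 12.3% of all windows, the palindrome was in 0 of 10 against 0.0365%, and GGGCGG was in 3 of 10 against 32.7%. A match is a string of letters and not evidence of binding.

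Nfix and Nfib were low in astrocyte-like cells and higher in each later class, in both libraries. Nfix, the family member best known for holding postnatal neural stem cells in quiescence, was at 207 (192 to 223) and 218 (200.0 to 237) CPM in astrocyte-like cells. It reached 798 and 692 CPM in activated cells, 730 and 654 CPM in dividing cells, and 805 and 825 CPM in neuroblasts. The step from astrocyte-like to activated cells was 3.85-fold (3.48 to 4.27) and 3.18-fold (2.88 to 3.51). No class interval of the astrocyte-like cells overlapped that of a later class, while the 3 later classes lay close together. Neuroblasts exceeded dividing cells by 1.10-fold (1.01 to 1.20) and 1.26-fold (1.17 to 1.36) on CPM. Per cell the later classes were ordered differently, with 2.73 and 3.14 Nfix UMIs in neuroblasts, 6.17 and 5.32 in activated cells and 7.62 and 6.59 in dividing cells, and astrocyte-like cells were still lowest at 0.847 and 0.847. At 2000 UMIs per cell, Nfix was seen in 29.0% and 34.1% of astrocyte-like cells, in 75% and 69.9% of activated cells and in 78.5% and 76.5% of neuroblasts. Before thinning the shares were 44.1% and 50.4%, 96.1% and 97.4%, and 83.0% and 86.6%.

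Nfib, which with Nfia drives gliogenesis and is also expressed in migrating neurons, was higher in each successive class and highest in neuroblasts. It stood at 313 (295 to 332) and 298 (277 to 320) CPM in astrocyte-like cells, and at 652 and 613 CPM in activated cells. In dividing cells it was at 800.3 and 822 CPM, and in neuroblasts at 1433 (1358 to 1512) and 1501 (1431 to 1574) CPM. None of the intervals of neighbouring classes overlapped in either library. The dividing class was uneven, with 724 and 663 CPM in the S phase cluster 5 and 987 and 1054 CPM in cluster 6. Cluster 6 had the neuroblast markers Dlx5, Dlx6 and Sp9 among its leading genes. The activated clusters 4 and 10 held 679 and 639, and 607 and 531 CPM, so cluster 5 lay close to cluster 4. Neuroblasts exceeded astrocyte-like cells by 4.58-fold (4.22 to 4.96) and 5.04-fold (4.62 to 5.50), and dividing cells by 1.79-fold (1.67 to 1.92) and 1.83-fold (1.72 to 1.93). Per cell the last step was the other way, with 8.36 and 8.29 Nfib UMIs in the deeper dividing cells, 4.87 and 5.71 in neuroblasts, 5.04 and 4.72 in activated cells and 1.28 and 1.16 in astrocyte-like cells. At 2000 UMIs, 94.3% and 90.5% of neuroblasts held Nfib, with a mean of 3.07 and 3.06 UMIs, a median of 3 and a highest value of 12 and 11. In astrocyte-like cells the share at that depth was 39.8% and 41.9%, and the median was 0. Before thinning the shares were 97.5% and 98.0% of neuroblasts and 60.05% and 62.2% of astrocyte-like cells.

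Nfia was lowest in astrocyte-like cells too, but its CPM was highest in the activated class and it differed between the libraries in neuroblasts. Nfia, which initiates gliogenesis in the embryonic nervous system, was at 328 (310 to 348) and 400 (375 to 425) CPM in astrocyte-like cells. Activated cells held 731 (679 to 786) and 669 (636 to 703) CPM, and dividing cells 544 and 562 CPM. In neuroblasts it was at 418 (378 to 462) CPM in library 1 and at 656 (610 to 705) CPM in library 2. In library 1 neuroblasts were thus next to astrocyte-like cells, and in library 2 their interval overlapped that of activated cells. Per cell, dividing cells held 5.68 and 5.67 Nfia UMIs and activated cells 5.65 and 5.15, above 1.42 and 2.49 in neuroblasts and 1.34 and 1.55 in astrocyte-like cells. The excess of activated over astrocyte-like cells was 2.22-fold (2.02 to 2.44) and 1.67-fold (1.55 to 1.81). That excess came mostly from the smaller of the 2 activated clusters: cluster 10, led by the Sprouty gene Spry2 and Abhd2 and resting on 3 markers, held 1200.0 and 1206 CPM, whereas cluster 4 held 441 and 501 CPM. Without cluster 10 the log2 ratio of astrocyte-like over activated cells was -0.42 and -0.33, below 1.5-fold in both libraries. With an unnamed cluster with Ccnd1 among its leading genes counted as activated it was -0.73 and -0.57, so library 2 was just short of 1.5-fold.

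Nfic, known outside the brain for its part in tooth root formation, ran against the rest of the family and was lowest in neuroblasts. It was at 84.7 (75.3 to 94.9) and 74.5 (64.2 to 85.9) CPM in astrocyte-like cells, at 67.2 and 94.2 CPM in activated cells and at 104 and 89.6 CPM in dividing cells. Neuroblasts held 22.4 (13.9 to 34.3) and 36.9 (26.6 to 49.9) CPM, below every other class in both libraries. Astrocyte-like cells exceeded neuroblasts by 3.78-fold (2.43 to 6.20) and 2.02-fold (1.44 to 2.89), and dividing cells exceeded them by 4.65-fold (2.98 to 7.65) and 2.43-fold (1.76 to 3.42). Astrocyte-like against activated cells went opposite ways in the libraries, with log2 ratios of 0.33 and -0.34. Per cell, Nfic was lower in astrocyte-like than in activated cells in both, at 0.347 and 0.290 against 0.519 and 0.725 UMIs, and dividing cells held 1.09 and 0.904. At 2000 UMIs, 4.07% and 4.21% of neuroblasts held Nfic against 15.2% and 14.2% of astrocyte-like cells. Unthinned, these were 6.52% and 11.04%, and 26.7% and 24.04%.

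**Figure D1:**
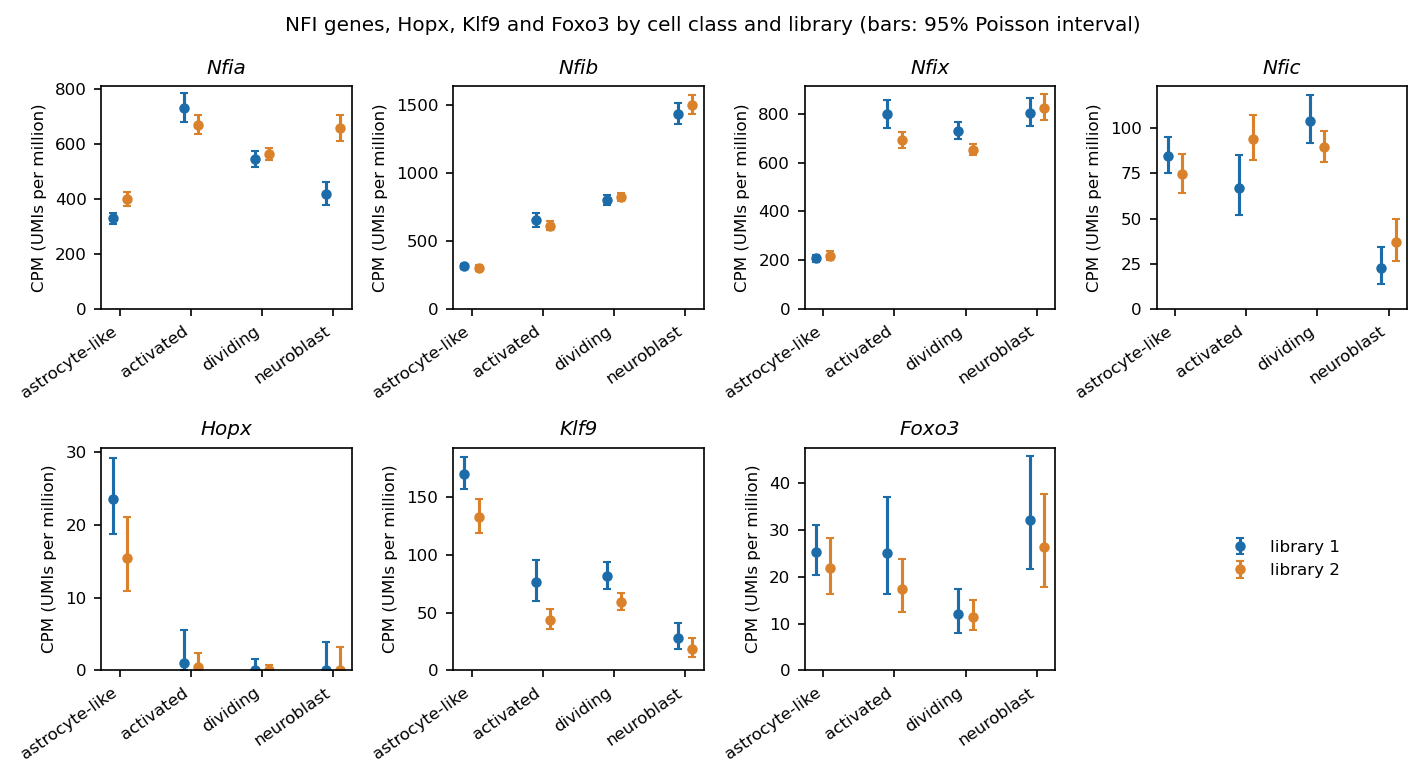
CPM of the 7 genes in the 4 cell classes, with 1 panel per gene, library 1 in blue and library 2 in orange; points are the CPM of the UMIs summed over cells and bars are exact 95% Poisson intervals, which cover counting error only. Nfib and Nfix were lowest in astrocyte-like cells and Klf9 was highest there in both libraries, Nfic was lowest in neuroblasts, and Hopx was near 0 outside astrocyte-like cells.

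Summed over the family, NFI transcripts took 933 and 990 CPM in astrocyte-like cells, 2247 and 2068 CPM in activated cells, 2178 and 2127 CPM in dividing cells and 2679 and 3019 CPM in neuroblasts. The make-up of that sum also shifted along the lineage. Shares between genes carry any difference in how well each 3' end is captured, so only their change between classes is described. Nfia made up 35.2% (33.5 to 36.9) and 40.4% (38.4 to 42.3) of NFI UMIs in astrocyte-like cells and 15.6% (14.2 to 17.1) and 21.7% (20.3 to 23.1) in neuroblasts. Nfib went from 33.6% and 30.1% to 53.5% and 49.7%. The Nfic share was 9.07% and 7.52% in astrocyte-like cells and 0.837% and 1.22% in neuroblasts. The Nfix share was 22.2% and 22.0% in astrocyte-like cells, 35.5% and 33.5% in activated cells and 30.04% and 27.3% in neuroblasts. The 101 oligodendrocyte-like cells of library 1 had another mixture, with 51.6% Nfix and 17.2% Nfib in a sum of 796 CPM. At 2000 UMIs, 22.6% and 18.3% of astrocyte-like cells held no UMI of any NFI gene, against 1.63% and 0.351% of neuroblasts.

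**Figure D2:**
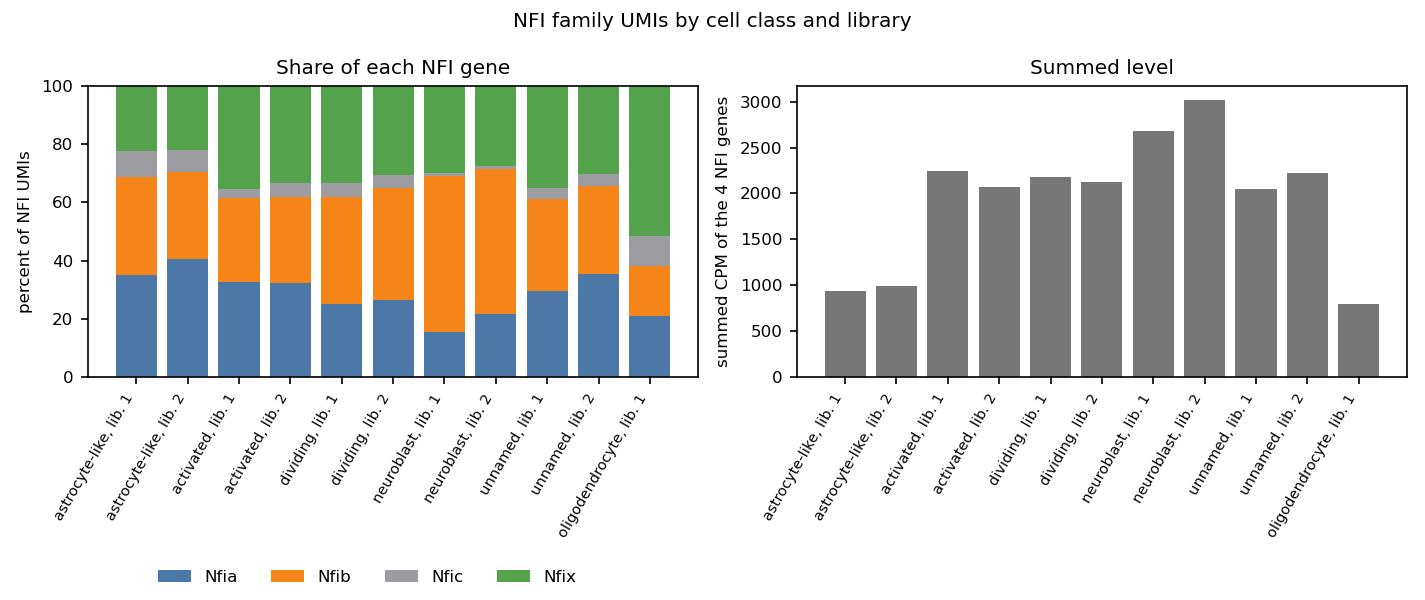
NFI family UMIs by class and library; the left panel stacks the percent of NFI UMIs that came from Nfia, Nfib, Nfic and Nfix, and the right panel gives the summed CPM of the 4 genes. The Nfib share was largest in neuroblasts, at 53.5% and 49.7%, the Nfix share was largest in oligodendrocyte-like cells of library 1, at 51.6%, and the summed level was lowest in that class and in astrocyte-like cells among those drawn.

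Most Hopx UMIs came from astrocyte-like cells, and the oligodendrocyte-like cells of library 1 held most of the rest. Its level was 23.5 (18.7 to 29.2) and 15.4 (10.98 to 21.1) CPM in astrocyte-like cells, from 82 and 39 UMIs. Activated cells held 1 UMI in each library. Dividing cells and neuroblasts held 0 UMIs in both. With 3 UMIs put in place of 0, astrocyte-like cells were 18.4-fold and 23.7-fold higher than dividing cells and 7.35-fold and 5.86-fold higher than neuroblasts. The exact lower limits were 14.6-fold and 18.4-fold against dividing cells, and 5.85-fold and 4.54-fold against neuroblasts. The ratio to activated cells, with 1 UMI on that side, was 23.5 (4.10 to 939) and 36.2 (6.13 to 1468). A count of 0 in 276 and 299 neuroblasts allows a share of cells with a UMI of up to 1.33% and 1.23%, and in 224 and 457 dividing cells of up to 1.63% and 0.804%.

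Within the astrocyte-like class Hopx was uneven. Cluster 0, led by the chemokine gene Cxcl14, the amino acid transporter gene Slc7a10 and the water channel gene Aqp4, held 44.6 and 23.3 CPM, in 63 of 513 cells (12.3%, 9.57 to 15.4) and 17 of 299 cells (5.69%, 3.35 to 8.95). Cluster 1, led by the filament gene Gfap and by Prss56 and Thbs4, held 4.16 and 13.3 CPM, in 3 of 195 and 9 of 275 cells. Cluster 8, led by stress and immediate early genes such as Socs3, Junb and Atf3, held 2 and 0 UMIs. Cluster 0 was the shallowest of the 3 clusters, with a median of 3322 UMIs against 3940 and 5166, and nonetheless held the most Hopx in both libraries. Neuroblasts, which were shallower still, gave the background share of 0 cells. In oligodendrocyte-like cells of library 1, 13 of 101 cells (12.9%, 7.04 to 21.0) held 26 UMIs, or 56.6 CPM, with up to 5 UMIs in 1 cell. The 9 such cells of library 2 held 0, which allows a share of up to 33.6%. The 10 oligodendrocyte markers summed to 524 and 230 CPM in astrocyte-like cells, and to 366 and 77.4 CPM in the neuroblasts that held 0 Hopx UMIs.

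Klf9 was highest in astrocyte-like cells and lowest in neuroblasts in both libraries. It was at 170.0 (157 to 184) and 133 (119 to 148) CPM in astrocyte-like cells and at 76.2 (60.02 to 95.4) and 43.9 (35.8 to 53.2) CPM in activated cells. Dividing cells held 81.6 (70.4 to 94.0) and 59.4 (52.6 to 66.9) CPM, and neuroblasts 27.8 (18.1 to 40.7) and 18.5 (11.4 to 28.2) CPM. The intervals of activated and dividing cells overlapped, and those of the other neighbours did not. Astrocyte-like cells exceeded activated cells by 2.23-fold (1.75 to 2.87) and 3.03-fold (2.42 to 3.82), and neuroblasts by 6.13-fold (4.14 to 9.46) and 7.21-fold (4.64 to 11.8). On UMIs per cell the order against dividing cells turned, with 0.696 and 0.518 in astrocyte-like cells and 0.853 and 0.600 in the deeper dividing cells. After thinning, 26.7% and 21.0% of astrocyte-like cells held Klf9, against 15.3% and 10.9% of dividing cells and 5.28% and 3.51% of neuroblasts. Unthinned, these were 43.8% and 36.1%, 45.5% and 39.6%, and 8.70% and 6.69%. Among astrocyte-like cells Klf9 was highest in the stress-gene cluster 8, at 264 and 228 CPM, against 144 and 112 CPM in cluster 0 and 137 and 121 CPM in cluster 1. The activated class was uneven too, with 40.5 and 34.1 CPM in cluster 4 and 134 and 75.2 CPM in the smaller cluster 10. In library 1 cluster 10 was thus near clusters 0 and 1. The unnamed cluster 2 held 119 and 97.8 CPM. Without cluster 8, Klf9 was still called against each later class, with log2 ratios over activated cells of 0.89 and 1.42.

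Foxo3 did not follow the astrocyte-like class. Its level was 25.3 (20.3 to 31.1) and 21.8 (16.4 to 28.4) CPM in astrocyte-like cells, 25.1 (16.2 to 37.0) and 17.5 (12.5 to 23.7) CPM in activated cells, and 32.0 (21.6 to 45.7) and 26.4 (17.8 to 37.6) CPM in neuroblasts. These 3 classes overlapped in both libraries. Dividing cells were lowest on CPM, at 11.96 (7.95 to 17.3) and 11.5 (8.61 to 15.04) CPM. Astrocyte-like cells exceeded dividing cells by 2.11-fold (1.37 to 3.36) and 1.89-fold (1.28 to 2.82), and neuroblasts exceeded them by 2.68-fold (1.55 to 4.65) and 2.29-fold (1.41 to 3.66). Per cell there was no such dip, with 0.103 and 0.0847 UMIs in astrocyte-like cells, 0.194 and 0.134 in activated cells, 0.125 and 0.116 in dividing cells and 0.109 and 0.1003 in neuroblasts. Among astrocyte-like cells Foxo3 too was highest in the stress-gene cluster 8, at 47.8 and 41.3 CPM, against 19.3 and 18.4 CPM in cluster 0 and 16.6 and 18.6 CPM in cluster 1. Without cluster 8 the log2 ratio of astrocyte-like over dividing cells was 0.62 and 0.69, against 1.08 and 0.92 with it. With 453 Foxo3 UMIs over all kept cells, smaller differences were not detectable at this depth.

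**Figure D3:**
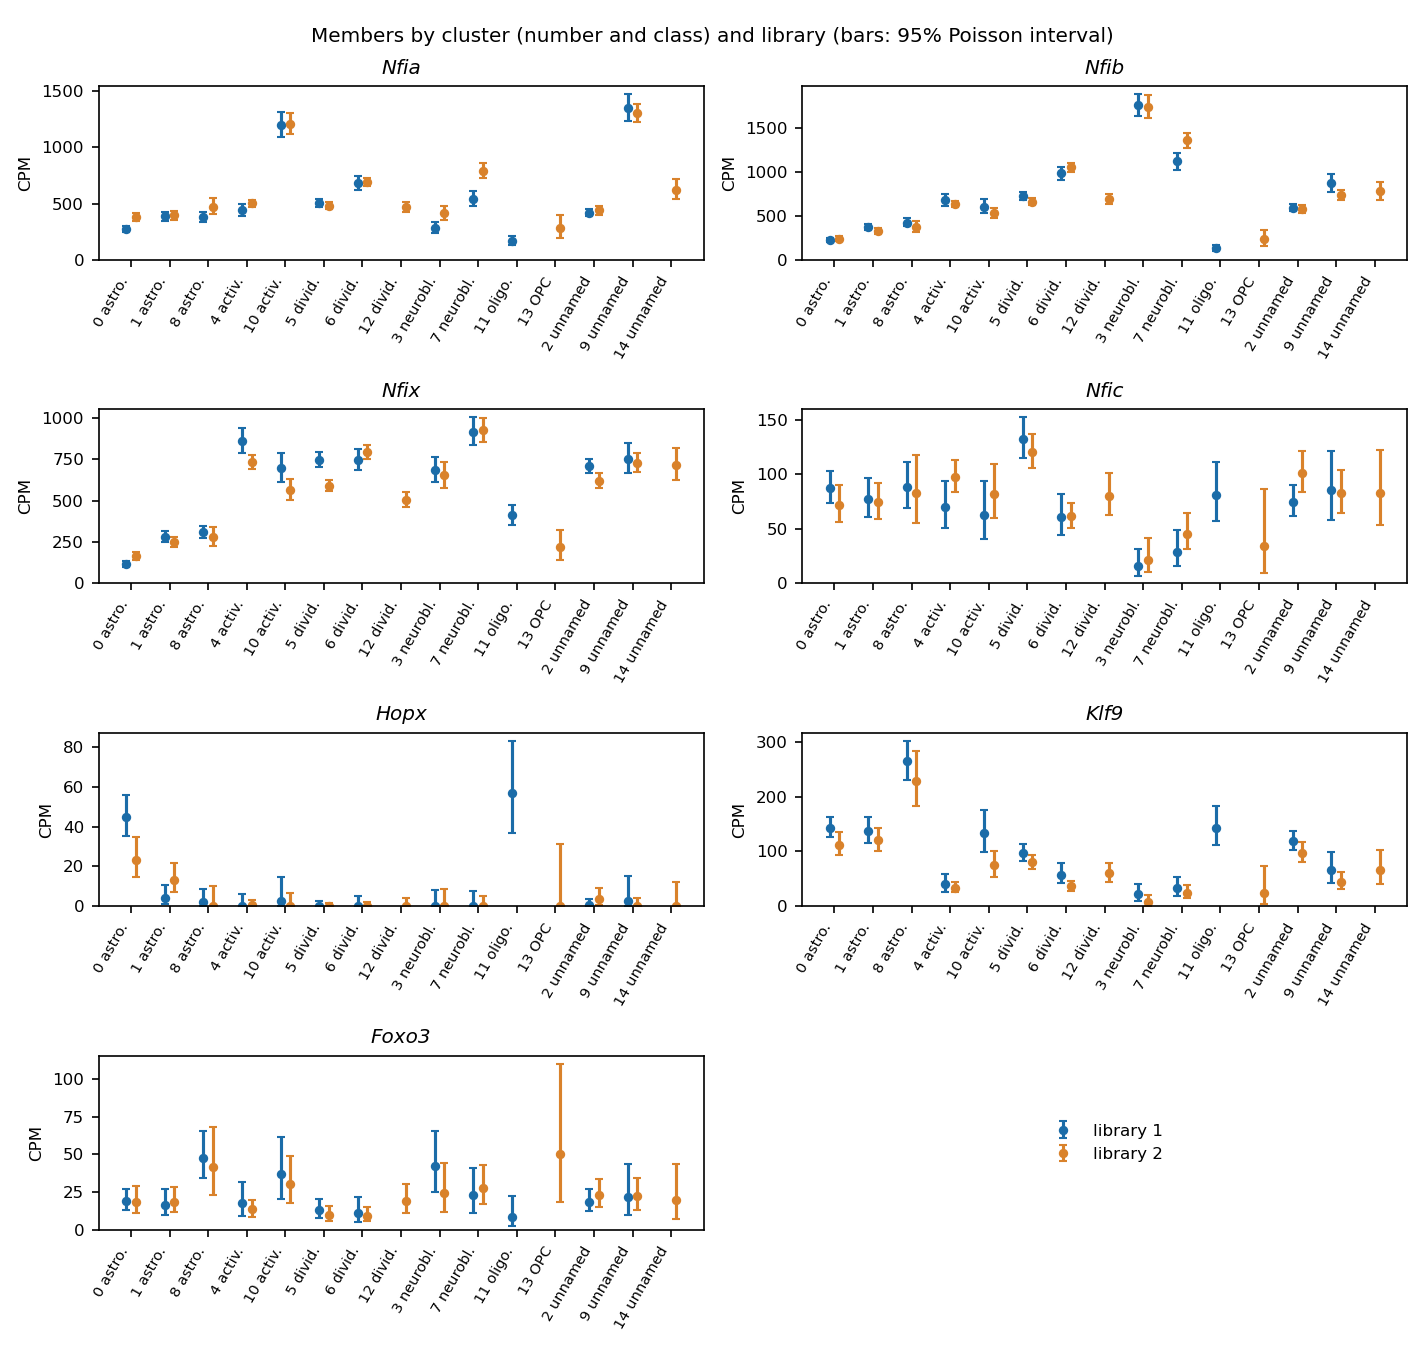
CPM of the 7 genes in each cluster with enough cells, with library 1 and library 2 as separate points and exact 95% Poisson intervals as bars. Nfia peaked in clusters 9 and 10, Nfib in the neuroblast cluster 3, Klf9 and Foxo3 were highest among the astrocyte-like clusters in cluster 8, and Hopx stood out in cluster 0 and in oligodendrocyte-like cells of library 1.

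Against the background of all genes, the counts of members were as follows, with a gene called when it was at least 1.5-fold apart in the same direction in both libraries and held at least 20 UMIs in each. Higher in astrocyte-like than in activated cells were 2 of the 7 genes, Hopx and Klf9, where 27.2% of 10384 genes were called. Lower there were Nfia, Nfib and Nfix, or 3 of 7, where 20.0% of genes were called. Against dividing cells 3 of 7 genes, Hopx, Foxo3 and Klf9, were higher in astrocyte-like cells (29.2% of 10871 genes), and Nfib and Nfix were lower (23.2%). Against neuroblasts 3 of 7, Nfic, Hopx and Klf9, were higher in astrocyte-like cells (28.7% of 10208 genes), and Nfib and Nfix were lower (23.0%). With 7 genes, counts of 2 or 3 are not read as above or below these backgrounds. Between later classes, Foxo3 was the only one of 6 measured members called higher in activated than in dividing cells (3.27% of 9316 genes), and none was called lower (5.80%). That Foxo3 ratio was 2.09-fold (1.17 to 3.73) and 1.52-fold (0.985 to 2.33), and the interval of library 2 included no difference. Higher in neuroblasts than in dividing cells were Nfib and Foxo3 (14.4% of 9395 genes), and lower were Nfic and Klf9 (16.8%). Against activated cells Nfib was higher in neuroblasts (15.6% of 8138 genes), and Nfic and Klf9 were lower (15.2%).

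Clusters within a class differed as much as classes did for Nfia. The unnamed cluster 9, led by Rpgrip1, Supt16 and the cell cycle kinase gene Cdk6, held 1352 and 1302 Nfia CPM, which together with cluster 10 was the highest level among the clusters. There Nfia made up 44.1% and 45.6% of NFI UMIs in cluster 9 and 46.8% and 50.6% in cluster 10. Nfib was highest in the neuroblast cluster 3, led by Meg3 and Runx1t1, at 1766 and 1746 CPM, against 1122 and 1361 CPM in the other neuroblast cluster, 7, led by Stmn2 and Dlx6os1. Nfix ran the other way between these clusters, at 684 and 652 CPM in cluster 3 and 918 and 924 CPM in cluster 7. Within the astrocyte-like class Nfix was at 117 and 164 CPM in cluster 0, 282 and 248 CPM in cluster 1, and 308 and 278 CPM in cluster 8. Cluster 0 was also lowest for Nfib, at 225 and 241 CPM, while it held the most Hopx. Nfic was highest in the S phase cluster 5, at 132 and 121 CPM, and lowest in cluster 3, at 15.5 and 21.7 CPM.

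Between the libraries, the members that stood apart within a class were 1 in astrocyte-like, 1 in activated and 0 in dividing cells, and 3 in neuroblasts. In astrocyte-like cells 1 of 7 genes, Hopx, differed by at least 1.5-fold, with library 1 1.52-fold (1.03 to 2.29) above library 2, where 15.7% of 11263 genes did so in either direction. That Hopx difference rested on cluster 0, at 1.92-fold (1.20 to 3.17), while in cluster 1 library 2 was higher by 3.19-fold (1.02 to 13.2). Without cluster 0 the log2 ratio of the class was -1.57. The summed oligodendrocyte markers were also higher in library 1 in each of the 4 classes, and their part in the Hopx difference was not tested. In activated cells 1 of 6 measured genes, Klf9, was 1.74-fold (1.27 to 2.36) higher in library 1 (17.9% of 9374 genes differed), and in dividing cells none of 6 reached 1.5-fold (13.1% of 10666 genes). In neuroblasts 3 of 6 measured genes differed (17.6% of 8124 genes): Nfia was 1.57-fold (1.38 to 1.78) higher in library 2, Nfic 1.65-fold (0.954 to 2.93) higher in library 2 and Klf9 1.503-fold (0.813 to 2.81) higher in library 1. The intervals of Nfic and Klf9 included no difference.

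Klf9 was higher in library 1 in all 4 classes, with log2 ratios of 0.35 (0.16 to 0.55) in astrocyte-like, 0.80 (0.35 to 1.24) in activated, 0.46 (0.18 to 0.73) in dividing cells and 0.59 (-0.30 to 1.49) in neuroblasts. Nfia was higher in library 2 in both neuroblast clusters, by 1.45-fold (1.15 to 1.83) in cluster 3 and 1.47-fold (1.26 to 1.70) in cluster 7, and in astrocyte-like cells by 1.22-fold (1.12 to 1.33). E130114P18Rik, the gene overlapping Nfia, was lower in library 1 in all 4 classes. It was at 96.2 and 122 CPM in astrocyte-like cells and 53.4 and 125 CPM in neuroblasts. Activated cells held 90.2 and 136 CPM of it, and dividing cells 109 and 166 CPM. In those 2 classes the log2 ratio of Nfia between the libraries was 0.13 and -0.05, and both intervals included 0. The part of E130114P18Rik in the Nfia difference was not tested. Nfib differed by at most 1.06-fold between the libraries in each of the 4 classes.

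**Figure D4:**
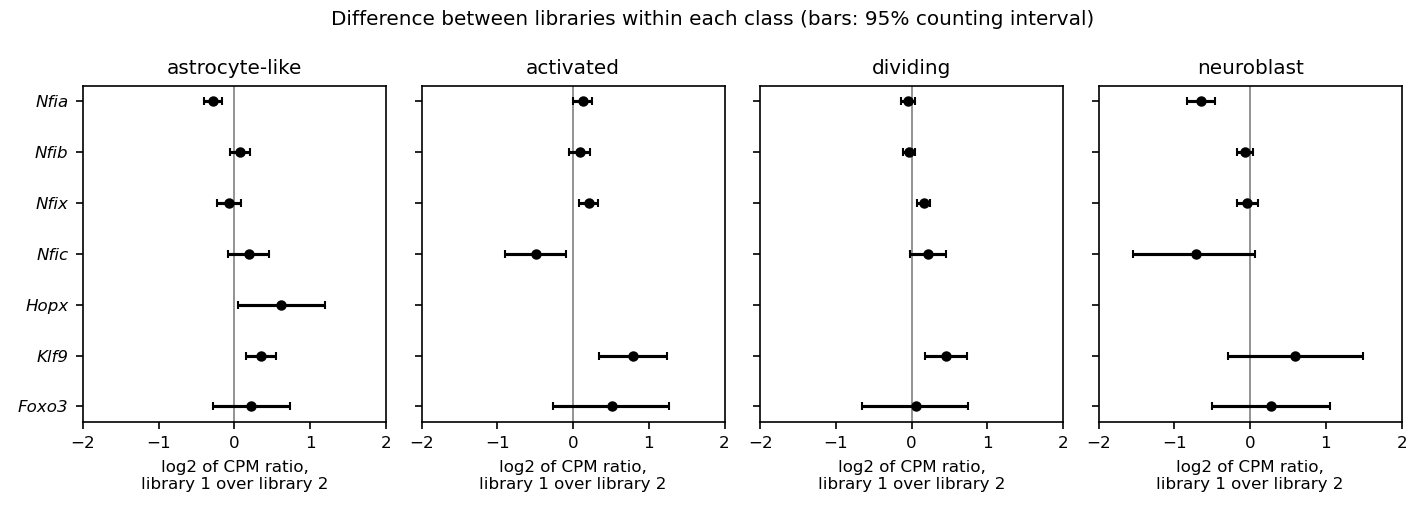
Log2 ratio of CPM in library 1 over library 2 for each gene within the 4 classes, with bars for the 95% counting interval; ratios without enough UMIs are not drawn. Klf9 lay above 0 in every class, Nfia lay at -0.28 in astrocyte-like cells and at -0.65 in neuroblasts, and Nfib stayed near 0.

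Other genes were described from lists drawn up around the members, each counted by the same call. Over all genes, 27.2% were called higher and 20.0% lower in astrocyte-like than in activated cells, and 28.7% and 23.0% against neuroblasts, with median log2 ratios of 0.07 and 0.05, and of 0.02 and 0.01. A count near these shares is no result about a list. Of the 10 NFI target genes, 8 were measured between astrocyte-like cells and neuroblasts, 6 were higher in astrocyte-like cells and 1, the Polycomb methyltransferase gene Ezh2, was lower, with a median log2 ratio of 3.03 and 3.07. The list does not separate targets that NFI factors raise from those they lower, so no direction was expected of it. Fabp7, a brain lipid-binding protein of radial glia, went from 784 and 945 CPM in astrocyte-like cells to 59.8 and 87.9 CPM in neuroblasts, and Mmd2, an NFIA target in early gliogenesis, from 923 and 813 to 76.8 and 47.5 CPM. Hes1, a Notch effector, went from 368 and 359 to 16.0 and 9.67 CPM. Between neuroblasts and dividing cells all 7 measured NFI targets were lower in neuroblasts (16.8% of all genes), where the summed NFI level was 2679 and 3019 CPM. Whether the target levels follow the NFI level or the cell type was not tested.

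Of the 14 Krüppel-like factors, Klf9 among them, 11 were measured against neuroblasts, and 7 were higher and 3 lower in astrocyte-like cells, with a median log2 ratio of 1.40 and 0.93. Against activated cells 3 of 11 were higher and 4 lower, and the median had opposite signs in the libraries, at -0.36 and 0.37. Klf2 was at 182 and 181 CPM in astrocyte-like cells and at 26.7 and 19.3 CPM in neuroblasts. Klf7, which promotes axon growth, was at 138 and 168 CPM and at 442 and 433 CPM. Among the 17 genes of glucocorticoid and thyroid hormone response, 8 of 13 measured were higher in astrocyte-like cells than in neuroblasts and 1, Fkbp5, was lower, with a median log2 ratio of 1.00 and 0.78, and against activated cells 6 were higher and 1 lower, with a median of 0.84 and 0.64. Tsc22d3, which encodes the glucocorticoid-induced leucine zipper, was at 239 and 181 CPM in astrocyte-like cells and at 120 and 89.9 CPM in activated cells.

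Around Foxo3, family members, targets and upstream genes were counted separately. In the FoxO family, 3 of 4 genes were measured against activated cells and 1, Foxo1, was higher in astrocyte-like cells, at 89.0 and 92.7 CPM against 8.02 and 14.1 CPM. Of the FoxO targets, 21 of 22 were measured, and 5 were higher and 5 lower in astrocyte-like than in activated cells, and 5 higher and 9 lower than in neuroblasts. Both counts against activated cells lie near the shares over all genes. The median log2 ratio was 0.23 and 0.40 against activated cells, and 0.32 and -0.59 against neuroblasts. The transcriptional coregulator gene Cited2 was at 64.9 and 36.4 CPM in astrocyte-like cells and at 250 and 286 CPM in neuroblasts, and the autophagy gene Map1lc3b at 328 and 375 CPM and at 568 and 591 CPM. Of the genes upstream of FoxO, 10 of 11 were measured against activated cells, where none was higher and 2, the kinase genes Akt1 and Pik3ca, were lower in astrocyte-like cells, with a median log2 ratio of -0.36 and -0.34. Against dividing cells none was higher and 4 of 11 lower (29.2% and 23.2% of all genes). Against neuroblasts none was higher and 4 of 10 lower (28.7% and 23.0% of all genes). Pik3ca, which encodes a catalytic subunit of phosphoinositide 3-kinase, was at 24.1 and 25.3 CPM in astrocyte-like cells and 70.2 and 50.3 CPM in activated cells.

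Of the 4 genes listed around Hopx and serum response factor, 3 were measured against activated cells. The histone deacetylase gene Hdac2 was lower in astrocyte-like cells, at 94.2 and 78.8 CPM against 201 and 245 CPM. Mkl2 was higher, at 18.1 and 14.7 against 5.01 and 5.54 CPM. All 26 other quiescence regulators were measured, and 13 were higher and 6 lower in astrocyte-like than in activated cells (27.2% and 20.0% of all genes). Against neuroblasts 15 were higher and 4 lower (28.7% and 23.0% of all genes). Both counts of lower genes are near or below the shares over all genes. The median log2 ratio was 0.57 and 0.74, and 1.47 and 1.43. Id4, an inhibitor of proneural factors, was at 865 and 985 CPM in astrocyte-like cells and at 139 and 227 CPM in activated cells. Hes5, a Notch effector, was at 1404 and 1341 CPM in astrocyte-like cells and higher in activated cells, at 3121 and 4746 CPM.

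Levels across clusters were also compared among the members and with other genes, over 26 profiles of a cluster in a library with at least 30 cells, which share libraries and depth. Nfib and Nfix had a Pearson correlation of 0.79, Nfib and Klf9 of -0.67, and Klf9 and Nfic of 0.66. Out of 9160 other genes, the 5 most like Nfia were Rpgrip1 (0.92), Cbx3 (0.91), Supt16 (0.89), Hsf2 (0.88) and Rbm15 (0.88), all high in clusters 9 and 10. Those most like Nfib were Mex3a (0.96), Tmem2 (0.95), Zfp292 (0.95), Cd24a (0.95) and Dbn1 (0.94), of which Cd24a was a neuroblast marker used for naming. Mex3a, an RNA-binding protein gene, was at 5.28 and 4.85 CPM in cluster 0 and at 243 and 171 CPM in cluster 3. For Nfix they included Polr3k (0.97), Tpt1 (0.96), Bzw1 (0.95) and Tmsb4x (0.95), and for Nfic they were Mif (0.89), Higd1a (0.88), Slc25a5 (0.86), Fam162a (0.84) and Bola3 (0.84). Klf9 was most like Arap2 (0.89), Chmp4b (0.88), Bag3 (0.88), Cbs (0.87) and Nfe2l2 (0.86), and Foxo3 most like Atp13a2 (0.76), Txlng (0.75), Klhl9 (0.74), Clk1 (0.73) and Lrrtm2 (0.72). Hopx, with 158 UMIs in all, was below the 200 UMIs set for this comparison and has no such genes.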

How the data were processed

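The deposited matrix holds whole-number UMI counts per gene and cell barcode, made by the authors with Cell Ranger 2.0.0 against GRCm38.p3 and mm10, per the submitters' processing notes. The sources used here name no further filter. Both libraries were read from it by barcode suffix. A cell was kept with 500 or more genes and a mitochondrial share of 10% or less (22 failed), and Scrublet, run per library through scanpy 1.11.5, marked 27 doublets (0.870% and 0.530%), which were left out. Counts were scaled to 10000 per cell, and 2000 variable genes without the members and listed genes gave 30 principal components, 15 neighbours and Leiden clusters at resolution 1. Each cluster was named for the class whose markers (163 over 15 classes) were most raised on the log2 scale, given 3 or more at 1.5-fold. A cluster stayed unnamed if another class had more markers among its 10 leading genes. It also stayed unnamed if it was much shallower than its library and had no marker of its class among them. By these rules 14 of 17 were named. UMIs were summed per class and library, with Poisson intervals for CPM, Clopper-Pearson intervals for shares and conditional binomial intervals for ratios. With 1 library per age no test was run. The named genes are the 7 members, the 4 genes with the most UMIs of each list, and the 5 genes of highest Pearson correlation of log2(CPM + 10) with each member; Ezh2, Fkbp5 and Akt1 were named after their values were seen. Some items these rules would name are not reported here. Members, lists and comparisons were chosen with earlier results of these data known. The ratio call, its interval and the ranking of like genes were tested on simulated data. The call and interval were tested on counts with Poisson spread only. Filters, doublet marking, clustering, naming and thinning were not tested in this way. Alternatives changed the filters, doublets, resolution, seed, variable genes, scaling, thinning, clusters and fold.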

Additional observations from a re-analysis of the deposited data

Results flagged for a closer look

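Nfia went opposite ways between neuroblasts and dividing cells in the libraries, with a log2 ratio of neuroblast over dividing of -0.38 in library 1 and 0.22 in library 2. Neither counting interval included 0.

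Several members were higher in library 1 in some clusters and higher in library 2 in others, each beyond counting error. The log2 ratio of library 1 over library 2 for Nfib was 0.13 in cluster 5 (S phase) and 0.24 in cluster 9 (unnamed, led by Rpgrip1) but -0.28 in the neuroblast cluster 7. For Nfix it was 0.19 in cluster 2 (unnamed, with Ccnd1 among its leading genes), 0.23 in cluster 4 and 0.31 in cluster 10 (both activated-like) and 0.34 in cluster 5, and it was -0.49 in the astrocyte-like cluster 0. For Hopx it was 0.94 in cluster 0 and -1.67 in cluster 1, the latter from 4 and 15 UMIs. With 1 library per age these differences between clusters and between libraries were not tested.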

How the results depend on the processing

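No paired analysis was possible because each age has 1 library, so the ages share fewer than 2 replicate numbers. Over 15 alternative settings, 61 ratios gave 881 values, of which 681 stayed within the counting interval and 191 moved out of it. Another 9, all of ratios reported at 1.5-fold or more, turned direction. Counting smaller ratios too, 37 values had another sign than reported. The 681 include values that could not move. The 2-fold setting changed only the call, and settings that recast only astrocyte-like or only activated cells left ratios between other classes as they were. Nfib and Nfix were lower in astrocyte-like than in activated, dividing and neuroblast cells under every setting that gave a value, with log2 ratios from -0.61 to -3.17 over both genes and libraries. On UMIs per cell, which follow depth, the log2 ratio of astrocyte-like over dividing cells turned to -0.27 and -0.45 for Foxo3 and to -0.29 and -0.21 for Klf9, and that of neuroblast over dividing cells to -0.78 and -0.54 for Nfib and to -0.20 and -0.21 for Foxo3. The Hopx ratio of library 1 over library 2 in astrocyte-like cells turned to -1.57 without cluster 0. On UMIs per cell, members higher in astrocyte-like cells were 1 against activated (2 as reported) and 1 against dividing cells (3 as reported), and those higher in neuroblasts than in dividing cells were 0 (2 as reported). Without each class's largest cluster the counts were 0 against activated cells and 1 for neuroblasts over dividing cells. The latter was also 0 under the stricter cell filter (1000 genes, 5% mitochondrial UMIs), 1 at 2000 UMIs per cell and 1 at 2-fold, and the count between libraries in astrocyte-like cells was 0 at 2-fold; beyond depth and the stricter fold, the cause was not tested. No cluster was named activated with doublets kept or at resolution 0.5, and elsewhere the class held 138 to 770 cells, with the log2 ratio of astrocyte-like over activated cells for Nfia between -2.19 and -0.33. Removing the stress-gene cluster, removing cluster 10 or adding the unnamed cluster with Ccnd1 among its leading genes, all chosen after seeing the data, changed no count of members higher in astrocyte-like cells. Of the 5 genes most like each member, 1 to 3 were shared under Spearman correlation and 2 to 5 with 1 CPM added before log2. Foxo3 (453 UMIs), Hopx (158 UMIs) and Nfic in neuroblasts (21 and 42 UMIs) are limited by depth.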
